A study of Homo sapiens with 8 samples.

Results

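The keratin family was followed in MCF10A, an epithelial line from human breast that forms no tumours, and in a p53-deficient derivative of it. Members were the genes whose symbol is KRT followed directly by a number, without keratin-associated proteins and pseudogenes. Of 54 such symbols, 52 had a probe matched by transcript accession, among 20296 named genes in all, and KRT34 and KRT86 had none. Untreated p53+/+ and p53-/- cells gave the 0 h arrays, and cells of both genotypes were exposed to the DNA-damaging drug adriamycin (ADR, that is, doxorubicin) and harvested at 12, 24 and 48 h. The labels give 0.5 µg/ml for 2 h, whereas the study's methods give 2 µg/ml for 2 h. Each genotype and time point had 1 array, 8 in all on 1 slide, so no single comparison has a replicate error. The p53-/- arrays lay in one column of the slide and the p53+/+ arrays in the other, so slide position cannot be told apart from genotype. How many clones the p53-/- line stands for is not given in the sources used here.

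Keratins are the intermediate filament proteins of epithelial cells. A filament is built from pairs of an acidic type I and a basic type II keratin, and the pair that a cell makes marks its kind: KRT5 with KRT14 in basal cells of skin and breast, KRT8 with KRT18 in luminal and other simple epithelia, KRT1 with KRT10 in the upper layers of the epidermis. KRT6 isoforms, KRT16 and KRT17 are made at wounds and in hyperproliferating epithelium. Type I genes lie together on chromosome 17 and type II genes on chromosome 12, with KRT18, a type I gene, at the end of the type II cluster.

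A level below is log2 of the ratio of the processed signal to the array's 75th percentile, and a difference is a difference of 2 such levels. Levels of different genes come from different probes and are not set against each other. The 75th percentile was 661 to 1015 on the p53+/+ arrays and 879 to 1199 on the p53-/- arrays. On 7 arrays 6 of 10 spike-in probes were well above background and on the p53+/+ 48 h array 0 of 10, so that array lacks this control. As a check of the labels, the p53-induced gene CDKN1A had levels of 2.54 to 2.70 on the treated p53+/+ arrays, −2.97 to −0.48 on the p53-/- arrays and −1.14 on the array labelled p53+/+ 0 h. MDM2, also induced by p53, read 1.29 to 1.76, −2.04 to −1.33 and −1.66 in the same order. On the last array both genes thus lay inside the range of the p53-/- arrays, untreated and treated together. For CDKN1A this rests on the treated arrays, since p53-/- cells read −2.97 at 0 h and −0.96, −0.64 and −0.48 after ADR. MDM2 read −1.33 on the p53-/- 0 h array. The comparison of treated genotypes, which does not use the array labelled p53+/+ 0 h, comes first. Calls made from that array are also given from the p53-/- 0 h array. A change from the 0 h array of the other genotype holds genotype as well as ADR.

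Of the 52 keratins, 21 were well above background on all 8 arrays, 9 on some and 22 on none. All 3 basal keratins (KRT5, KRT14 and KRT15) and all 5 stress keratins (KRT6A, KRT6B, KRT6C, KRT16 and KRT17) were well above background on every array, as were KRT7, KRT8 and KRT18 of the 5 simple epithelial keratins. KRT19, a luminal keratin, was so on 4 arrays and KRT20, of intestinal epithelium, on none. Among the 5 suprabasal keratins KRT9 and KRT10 were well above background on every array and KRT1, KRT2 and KRT77 on none. Of 15 hair keratins 4 were so on every array, namely KRT81, KRT83, KRT85 and KRT31. The number of keratins well above background was 23 to 25 on the p53+/+ arrays and 23 to 29 on the p53-/- arrays, where 60.4 to 67.6% of spots were well above background against 55.0 to 59.8% on the p53+/+ arrays.

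Between treated genotypes, 6 keratins were at least 2-fold higher in p53+/+ cells at all 3 times, namely KRT5, KRT14, KRT15, KRT6B, KRT17 and KRT13, and 0 were at least 2-fold lower. They included all 3 basal keratins, 2 of 5 stress keratins and 1 of 4 mucosal keratins. This was 6 of 52 members, of which 30 were well above background on at least 1 of the 6 treated arrays and could be called. Among all 15669 genes that could be called, 6.34% were higher and 5.79% lower by the same rule. The median difference over the 30 keratins was 0.29, 0.08 and 0.38 at 12, 24 and 48 h, beside 0.08, −0.03 and 0.10 over all genes. In these bulk samples fewer cells of a type and less RNA per cell cannot be told apart.

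**Figure D1:**
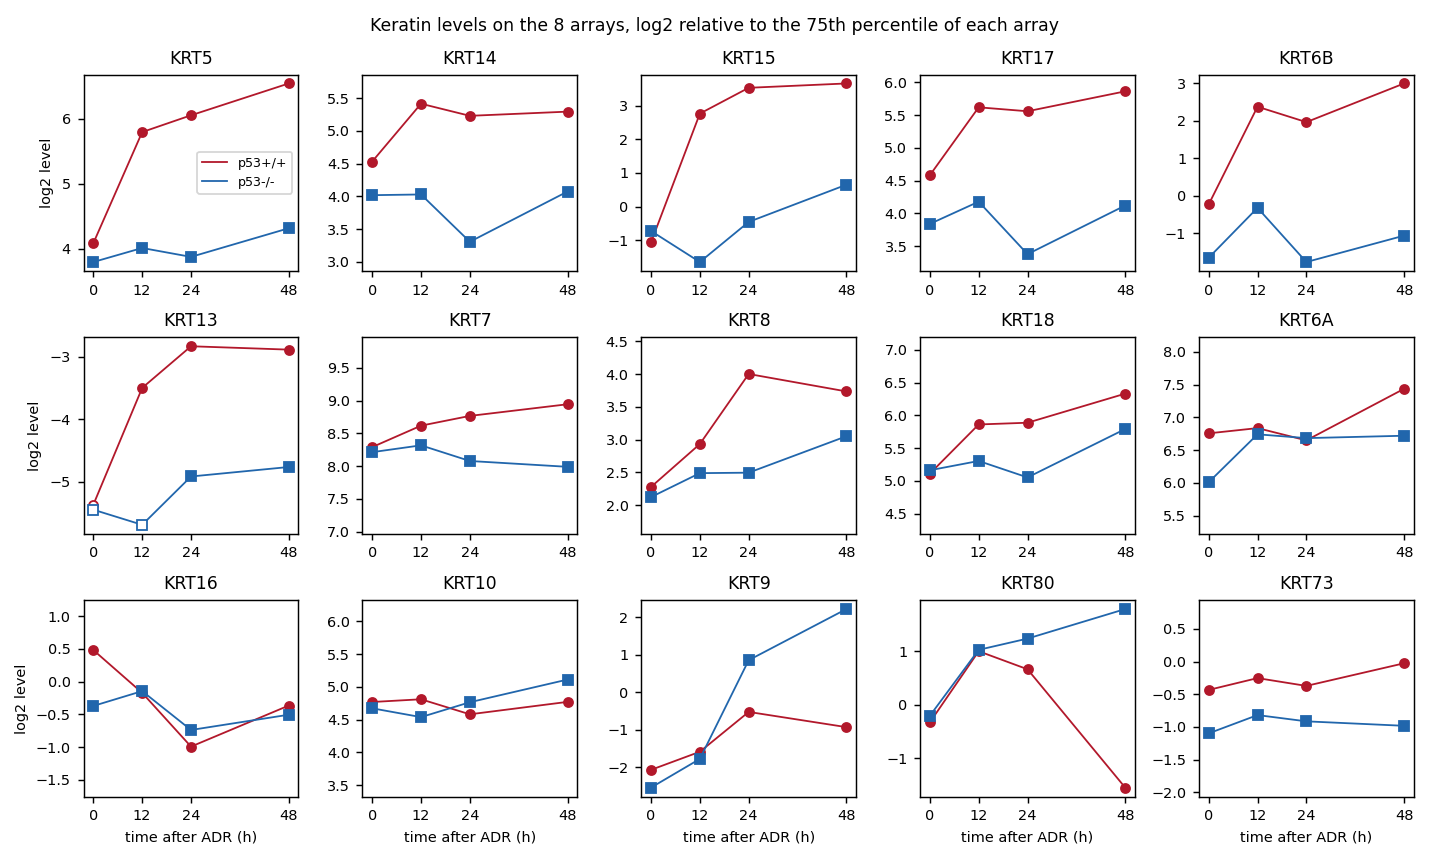
Log2 level, scaled to each array's 75th percentile (vertical axis, a scale of its own in each panel, at least 3 units high) against time after ADR in h, for 15 keratins, with circles for p53+/+ and squares for p53-/- arrays, 1 array per point. Open symbols are arrays on which the probe was not well above background. In the panels of KRT5, KRT14, KRT15, KRT17, KRT6B and KRT13 the p53+/+ points after ADR lie above all p53-/- points, and for KRT9 and KRT80 the p53-/- points lie above the p53+/+ points at 24 and 48 h.

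KRT5, the type II keratin of basal cells, read 5.79, 6.05 and 6.54 at 12, 24 and 48 h in treated p53+/+ cells and 4.01, 3.88 and 4.32 in treated p53-/- cells. It was 3.44-, 4.52- and 4.67-fold higher in p53+/+ cells. KRT14, its type I partner, read 5.41, 5.23 and 5.29 against 4.03, 3.31 and 4.07, which is 2.61-, 3.79- and 2.33-fold. Both members of the basal pair were therefore higher in p53+/+ cells at each time, and the treated arrays of the 2 genotypes did not overlap for either. KRT15, a type I keratin of basal cells known from stem cells of the hair follicle, read 2.76, 3.53 and 3.66 against −1.65, −0.46 and 0.65. Its difference was 21.3-fold at 12 h, 15.9-fold at 24 h and 8.07-fold at 48 h, and it narrowed as the p53-/- level went up.

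KRT17, a type I keratin induced in wounded epidermis, read 5.62, 5.56 and 5.86 in treated p53+/+ cells and 4.18, 3.38 and 4.12 in treated p53-/- cells, a 2.72-, 4.54- and 3.35-fold difference. KRT6B, a type II wound keratin, read 2.37, 1.96 and 2.99 against −0.32, −1.76 and −1.06, a 6.46-, 13.2- and 16.6-fold difference. For both genes every treated p53+/+ array lay above every p53-/- array. KRT13, a type I keratin of moist mucosa, read −3.50, −2.83 and −2.88 against −5.69, −4.92 and −4.76. It was not well above background on the p53-/- 12 h array, so that its difference there was at least 4.08-fold, and it was 4.26-fold at 24 h and 3.69-fold at 48 h. Repeat spots of 999 probes, each with 10 spots, put the technical SD of a log2 difference at 0.06 to 0.08 for the first 5 genes and at 0.36 for KRT13. It covers spots of an array and not cultures or arrays.

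In limma over the 6 treated arrays, with the 3 times of each genotype standing in for replicates, 8 keratins were higher in p53+/+ cells at a Benjamini-Hochberg adjusted p under 0.05 and 0 lower. Among all genes 12.7% were higher and 10.3% lower. At an unadjusted p under 0.05 limma called 10 of 30 tested keratins higher and 0 lower. The share of all genes at this unadjusted threshold was not counted, so these 10 cannot be set against it. The p compares the genotypes with the movement over time and not with a spread between cultures. The estimate was 2.06 for KRT5 (SE 0.25, adjusted p = 0.00306), 1.51 for KRT14 (SE 0.25, adjusted p = 0.00886) and 3.81 for KRT15 (SE 0.58, adjusted p = 0.00675). For KRT6B it was 3.49 (SE 0.43, adjusted p = 0.00318), for KRT17 1.79 (SE 0.26, adjusted p = 0.00585) and for KRT13 2.06 (SE 0.32, adjusted p = 0.00695). These 6 genes are those of the size rule, which used the same arrays. The other 2 genes were KRT7 and KRT73, with estimates under 2-fold of 0.65 (SE 0.19, adjusted p = 0.0491) and 0.69 (SE 0.17, adjusted p = 0.0348).

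Scaling and the 24 h arrays bore on these calls. Without scaling, the median of all genes moved to −0.37, −0.52 and −0.76 at 12, 24 and 48 h. KRT14 then differed by 0.93, 1.44 and 0.36 and KRT17 by 0.99, 1.70 and 0.89, so both lost the size rule, while KRT5, KRT15, KRT6B and KRT13 kept it. The limma calls without scaling were 6 higher and 5 lower, the latter being KRT6C, KRT76, KRT74, KRT31 and KRT33A. That is 11 of 30 tested keratins, where limma without scaling called 6406 of 15669 genes in either direction. The 5 lower calls came with the lower median of all genes and are not read as a keratin result. Without the 24 h arrays limma called 0 keratins at the adjusted threshold, with 7 higher and 0 lower at an unadjusted p under 0.05. The share of all genes at the unadjusted threshold was not counted here either. At the adjusted threshold limma then called 230 of 15499 genes in place of 3604 of 15669. KRT5, KRT14, KRT15, KRT6B and KRT17 kept their limma call under 10 of 11 alternatives, KRT13 under 9 of 10, KRT73 under 5 of 11 and KRT7 under 3 of 11. The lowest adjusted p of a keratin without the 24 h arrays was 0.0503, for KRT6B, whereas over 11 alternatives that of KRT6B ranged from 0.000608 to 0.0503.

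**Figure D2:**
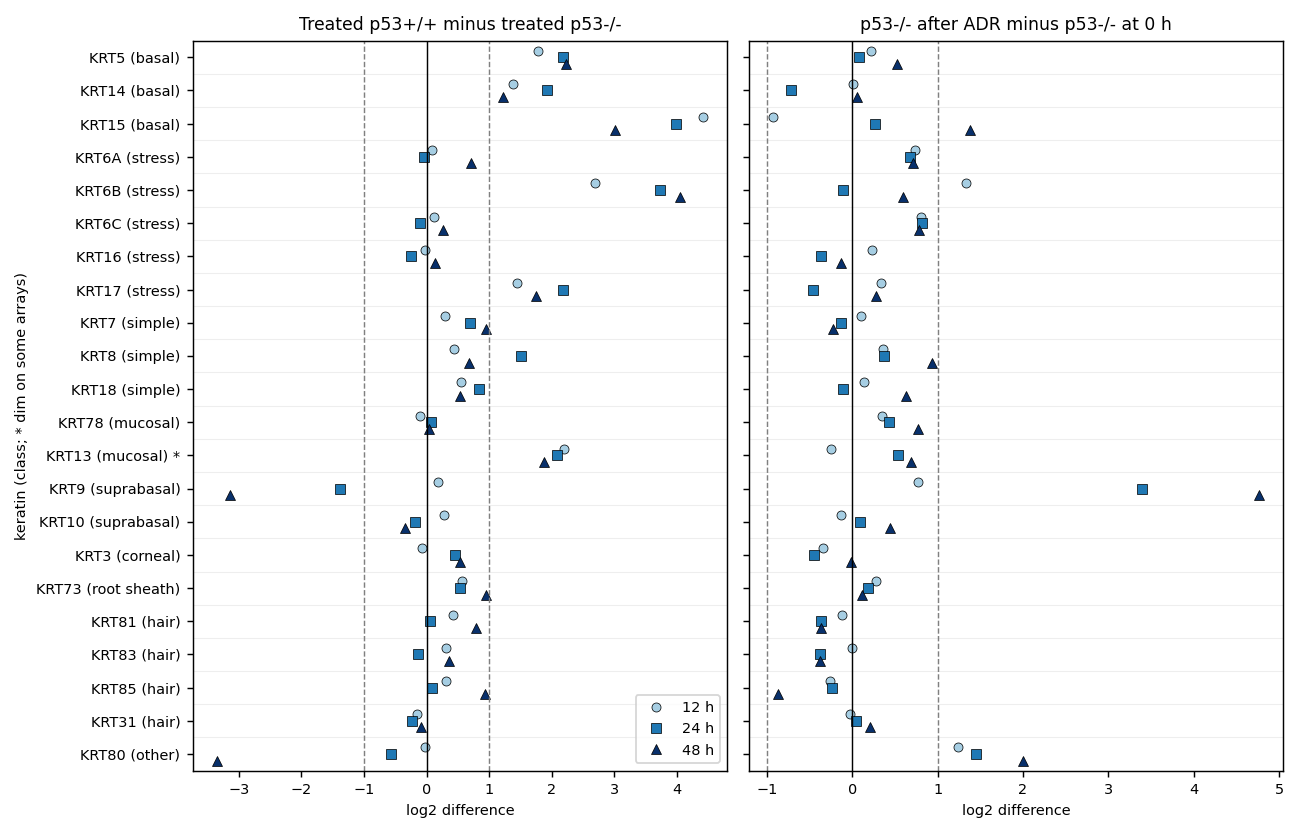
Log2 difference (horizontal axis) at 12, 24 and 48 h for the 21 keratins well above background on all 8 arrays and KRT13, with each gene's class in brackets: treated p53+/+ minus treated p53-/- on the left, p53-/- after ADR minus p53-/- at 0 h on the right. Dashed lines mark 2-fold, and 1 point is a difference of 2 arrays. On the left KRT5, KRT14, KRT15, KRT6B, KRT17 and KRT13 have all 3 points past the line, and on the right KRT80 does.

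KRT7, a type II keratin of simple and glandular epithelia, read 8.62, 8.77 and 8.95 in treated p53+/+ cells and 8.32, 8.08 and 7.99 in treated p53-/- cells. The luminal pair was also higher in p53+/+ cells at each time, but under 2-fold at 2 or more times. KRT8 read 2.93, 4.0 and 3.74 against 2.49, 2.49 and 3.05, a limma estimate of 0.88 (SE 0.33, adjusted p = 0.102). Its other 2 probes differed by 0.02, 1.32 and 0.25 and by 1.39, 0.91 and 0.77, so the probes of KRT8 disagreed on the size at 12 h. KRT18 read 5.86, 5.89 and 6.33 against 5.31, 5.05 and 5.79, with an estimate of 0.64 (SE 0.26, adjusted p = 0.120). A second KRT18 probe gave 0.61, 0.91 and 0.36, close to the 0.56, 0.84 and 0.54 of the first. KRT19 was well above background at 24 and 48 h in both genotypes, with −3.48 and −4.03 in the p53+/+ line against −4.23 and −3.50 in the p53-/- line.

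The other 3 stress keratins differed by 0.72 or less at every time. KRT6A read 6.84, 6.65 and 7.44 in treated p53+/+ cells and 6.74, 6.68 and 6.72 in treated p53-/- cells. KRT6C read 4.43, 4.21 and 4.56 against 4.31, 4.32 and 4.29. KRT16, a type I partner of KRT6, read −0.17, −0.99 and −0.37 against −0.15, −0.74 and −0.51. The limma estimates were 0.26 (SE 0.24), 0.09 (SE 0.17) and −0.05 (SE 0.28). In limma without scaling that of KRT6C turned to −0.51. The KRT6 genes are near-identical copies, and KRT14, KRT16 and KRT17 are related but distinct type I genes. Probe sequences were not at hand, so signal shared between related genes was not tested. The same limit holds for the related hair keratins KRT81, KRT83 and KRT86, the last of which had no probe. A probe for the pseudogene KRT42P, of the KRT17 kind, read 3.23, 3.01 and 3.03 in treated p53+/+ cells and 1.39, 0.50 and 1.11 in treated p53-/- cells. A second KRT42P probe, well above background on 4 arrays, differed by −0.03, −1.39 and −0.66, and a probe for KRT17P5, well above background on all 8, by 0.02, −0.31 and −0.01.

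KRT10, the type I keratin of upper epidermal layers, read 4.81, 4.58 and 4.77 against 4.54, 4.76 and 5.11, with an estimate of −0.08 (SE 0.21). It stayed within a range of 0.57 over all 8 arrays. KRT73, of the inner root sheath of hair, read −0.25, −0.37 and −0.03 against −0.82, −0.91 and −0.98. Its difference was 0.66 between the 0 h arrays as well. Among hair keratins KRT81 read 8.49, 7.88 and 8.60 against 8.07, 7.82 and 7.82, and KRT83 5.44, 4.61 and 5.10 against 5.12, 4.75 and 4.74. KRT85 read −3.46, −3.66 and −3.45 against −3.78, −3.75 and −4.38. KRT31 read −3.40, −3.42 and −3.12 against −3.25, −3.19 and −3.02. None of these 4 passed the size rule or the limma threshold. The same held for KRT3, of the cornea, at −2.26, −1.83 and −1.32 against −2.18, −2.29 and −1.86, and for KRT78 at −3.44, −3.19 and −2.88 against −3.34, −3.26 and −2.92.

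KRT9 and KRT80 went the other way late in the time course. KRT9, the type I keratin of palm and sole skin, in p53-/- cells read −2.55 untreated and −1.78, 0.85 and 2.21 at 12, 24 and 48 h, which is 1.70-, 10.5- and 27.1-fold above the untreated level. In p53+/+ cells after ADR it read −1.59, −0.53 and −0.94. The p53+/+ level was thus 0.19 above the p53-/- level at 12 h, and below it by log2 differences of −1.38 at 24 h and −3.15 at 48 h. KRT9 missed the size rule through 12 h. KRT80, a type II keratin of many epithelia, in p53-/- cells read −0.21 untreated and 1.03, 1.24 and 1.79 after ADR, against 1.0, 0.67 and −1.55 in p53+/+ cells. Its difference was −0.03, −0.57 and −3.34, the last on the array without spike-in signal. In limma neither passed, with estimates of −1.45 for KRT9 (SE 0.96, adjusted p = 0.320) and −1.31 for KRT80 (SE 0.67, adjusted p = 0.204).

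Ranges that did not overlap gave a wider set. Of the 21 keratins well above background on all 8 arrays, 9 had all 3 treated p53+/+ arrays above all 3 treated p53-/- arrays, and KRT80 was the 1 gene with the reverse order. Of 11828 genes well above background on all arrays, 27.6% lay wholly higher and 20.1% wholly lower in p53+/+ cells. The 9 were KRT5, KRT14, KRT15, KRT7, KRT18, KRT6B, KRT17, KRT73 and KRT85.

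The keratins that differed lay next to keratins that did not. On chromosome 12 the genes run KRT6B, KRT6C, KRT6A and KRT5 in the RefSeq order of GRCh38.p14, and KRT6C and KRT6A, which differed by −0.11 to 0.72, lie between KRT6B and KRT5. On chromosome 17 KRT13 and KRT15 are neighbours, and KRT14 and KRT17 have KRT16 between them, which differed by −0.25 to 0.14. KRT9 lies next to KRT14 and differed in the opposite direction at 24 and 48 h.

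**Figure D3:**
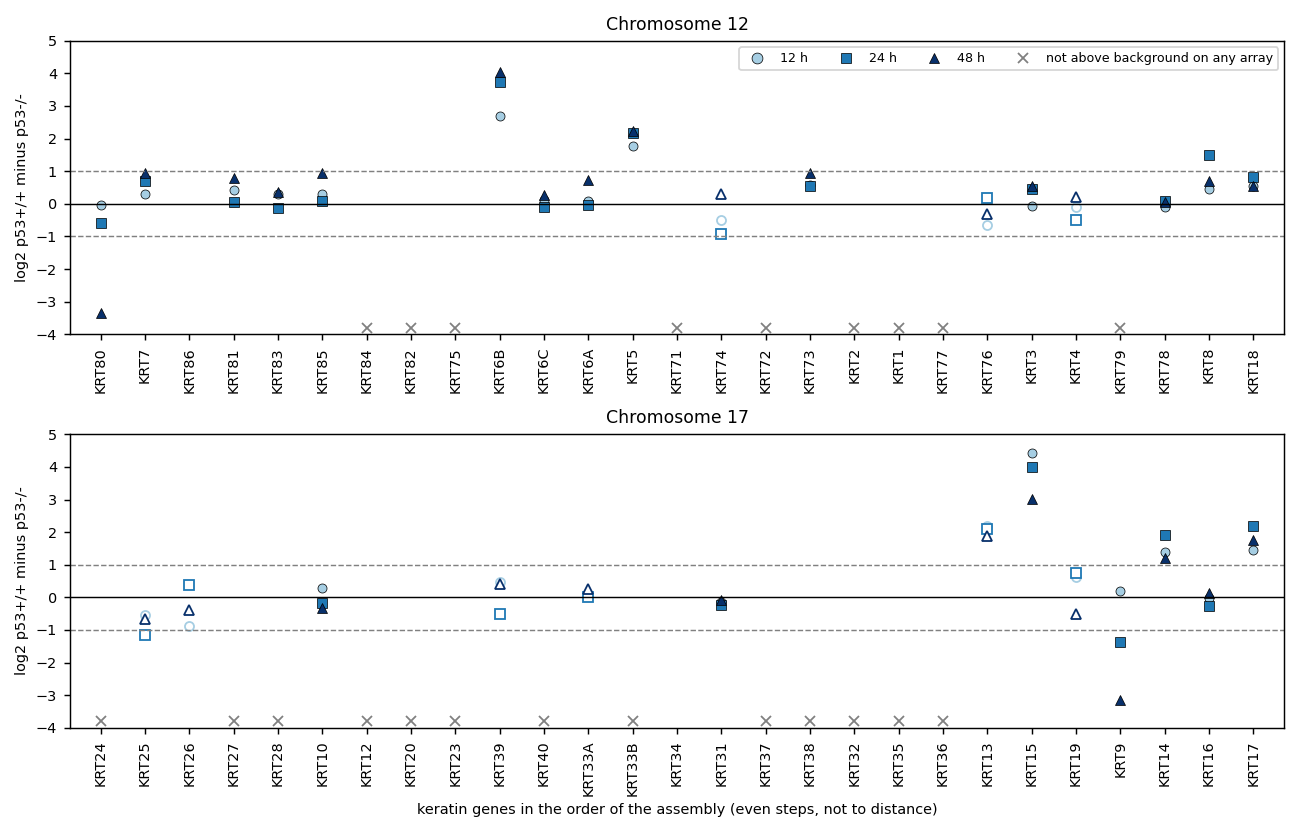
Log2 treated p53+/+ minus treated p53-/- (vertical axis) at 12, 24 and 48 h for the keratin genes of chromosomes 12 and 17, set in even steps in the gene order of GRCh38.p14. Open symbols are genes well above background on only some arrays, crosses at the bottom are genes well above background on none and have no value there, KRT34 and KRT86 had no probe, and dashed lines mark 2-fold. KRT6B and KRT5 stand past the upper line with KRT6C and KRT6A between them near 0, and KRT14 and KRT17 with KRT16 between them near 0.

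The start sites of 33 of the 52 keratins were in the RefSeq promoter table of GRCh38.p14, among them KRT5 as the only 1 of the 6 keratins above. The 250 bases before its start are shown beside those of KRT9, which went the other way, and of KRT10, which moved least of these 3. Capitals mark matches to the p53 half-site, searched by its degenerate consensus on both strands, and matches to ATAAA or TATAA lying 40 to 20 bases before the start. The windows are chr12:52520395-52520644, chr17:41572060-41572309 and chr17:40822615-40822864, all on the minus strand and written 5′ to 3′.
KRT5: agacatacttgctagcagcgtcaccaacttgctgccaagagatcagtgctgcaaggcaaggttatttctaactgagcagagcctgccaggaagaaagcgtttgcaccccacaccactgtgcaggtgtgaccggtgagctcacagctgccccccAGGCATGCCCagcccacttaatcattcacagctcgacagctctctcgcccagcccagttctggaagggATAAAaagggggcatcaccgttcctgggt
KRT9: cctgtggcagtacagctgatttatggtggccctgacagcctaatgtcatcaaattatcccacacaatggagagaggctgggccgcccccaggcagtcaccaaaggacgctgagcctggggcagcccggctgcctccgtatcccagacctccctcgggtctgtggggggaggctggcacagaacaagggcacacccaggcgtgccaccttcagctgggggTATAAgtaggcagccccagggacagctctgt
KRT10: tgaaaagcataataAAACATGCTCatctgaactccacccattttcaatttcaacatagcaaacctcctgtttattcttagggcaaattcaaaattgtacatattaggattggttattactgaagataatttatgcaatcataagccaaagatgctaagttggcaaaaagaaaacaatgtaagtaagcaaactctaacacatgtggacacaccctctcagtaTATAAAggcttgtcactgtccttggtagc

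KRT5 held 1 match to the p53 half-site, AGGCATGCCC, from 97 to 88 bases before its start. KRT10, whose level hardly moved, held AAACATGCTC from 236 to 227 bases before its start, and KRT9 held no match. A match was found in 7 of the 33 keratins and in 5.57% of all 35116 windows of this length, and it is a description of the letters only. The 7 were KRT2, KRT5, KRT8, KRT10, KRT20, KRT25 and KRT76. Here and below a keratin counted if any of its windows matched, whereas the percentages are of single windows, so the units are unlike. ATAAA was found on either strand in 32 of the 33 keratins and in 32.7% of all windows, and TATAA, which can overlap it, in 24 and in 18.9%. The AP-1 motif TGANTCA was found in 0 of the 33 keratins and in 6.57% of all windows. The AP-2 motif GCCNNNGGC was found in 5 keratins and 19.8% of windows, and the SP1 motif GGGCGG in 4 and 42.6%.

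Over the ADR time course in p53+/+ cells, 4 keratins were at least 2-fold higher than on the array labelled p53+/+ 0 h at all 3 times, namely KRT5, KRT15, KRT6B and KRT13, and 0 were lower. Of the 52 members 26 could be called, and 9.04% of 14353 genes were higher and 6.86% lower. KRT5 read 4.09 on that array and was 3.27-, 3.90- and 5.48-fold higher at 12, 24 and 48 h. KRT15 read −1.07 there and was 14.3-, 24.3- and 26.5-fold higher. KRT6B read −0.23 there and was 6.07-, 4.57- and 9.33-fold higher. KRT13 was not well above background there, so that its change was at least 3.16-, 5.03- and 4.84-fold. With normexp background correction KRT13 no longer passed. These 4 were among the 6 keratins that differed between the treated genotypes.

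KRT14 and KRT17 missed the rule from that array. KRT14 read 4.53 on it, and its log2 changes were 0.88, 0.70 and 0.76, while KRT17 read 4.58 and changed by 1.04, 0.98 and 1.28. On the p53-/- 0 h array they read 4.02 and 3.84, and from it KRT14 changed by 1.40, 1.21 and 1.28 and KRT17 by 1.78, 1.72 and 2.03. With that array as the baseline 6 keratins passed upwards, the 4 above with these 2, where 8.91% of all genes did. That baseline is of the other genotype, so ADR and genotype cannot be told apart in changes from it. The changes of KRT5 were then 2.00, 2.25 and 2.74, of KRT15 3.49, 4.26 and 4.39 and of KRT6B 4.02, 3.61 and 4.64. The call of the basal pair as a whole therefore turned on which 0 h array was used.

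Among the other keratins, KRT8 changed from its 2.28 on the array labelled p53+/+ 0 h by 0.66, 1.73 and 1.46. KRT18 read 5.11 and changed by 0.75, 0.78 and 1.22. KRT7 read 8.29 and changed by 0.33, 0.48 and 0.65. All 3 simple keratins were thus higher at every time, and each was under 2-fold at 1 or more of them. KRT16 read 0.48 on that array and changed by −0.65, −1.47 and −0.85, the only keratin of the 21 with a level below that array at all 3 times. From the p53-/- 0 h array, where it read −0.37, its changes were 0.20, −0.62 and 0.01. KRT80 read −0.33 and changed by 1.33, 0.99 and −1.22, and KRT9 read −2.07 and changed by 0.48, 1.54 and 1.14. KRT6A read 6.76, KRT6C 4.36, KRT10 4.77, KRT73 −0.43, KRT81 8.24, KRT83 5.38, KRT85 −3.52, KRT31 −3.52, KRT3 −1.84 and KRT78 −3.33 on that array, and each of these changed by less than 2-fold at every time.

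In p53-/- cells KRT80 was the 1 keratin at least 2-fold higher than at 0 h at all 3 times, and 0 were lower. It was 2.35-, 2.72- and 4.0-fold higher. Of the 52 members 30 could be called, and 2.65% of 15470 genes were higher and 2.08% lower. Without scaling 4 keratins were called higher, with KRT9, KRT6A and KRT6C added. The 75th percentile rose from 879 at 0 h to 1118 to 1199 after ADR in these cells, and unscaled changes hold that rise. The share of all genes called without scaling is not given here, so these 4 cannot be set against it. At the 3-fold rule KRT80 was lost, since it was under 3-fold at 12 and 24 h. KRT80 also passed from the array labelled p53+/+ 0 h.

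The basal keratins changed little in p53-/- cells, apart from KRT15. KRT5 read 3.80 at 0 h and changed by 0.22, 0.08 and 0.52, and KRT14 by 0.01, −0.71 and 0.06. KRT15 read −0.73 at 0 h and changed by −0.92, 0.27 and 1.38. KRT6B read −1.65 and changed by 1.33, −0.11 and 0.59, and KRT17 by 0.34, −0.46 and 0.28. KRT6A read 6.01 and changed by 0.73, 0.67 and 0.71, and KRT6C read 3.50 and changed by 0.81, 0.82 and 0.78. These 2 copies were higher by like amounts at each time, under 2-fold throughout. KRT8 read 2.12 and changed by 0.37, 0.37 and 0.93, KRT18 read 5.16 and changed by 0.14, −0.11 and 0.63, and KRT7 read 8.21 and changed by 0.10, −0.13 and −0.22. KRT10 read 4.67, KRT73 −1.10, KRT81 8.19, KRT83 5.12, KRT85 −3.51, KRT31 −3.23, KRT3 −1.84 and KRT78 −3.69 at 0 h, and each of these stayed within 2-fold. Of the 21 keratins well above background on all arrays, 17 stayed within 2-fold at every time in p53-/- cells. From the array labelled p53+/+ 0 h, 12 did so in p53+/+ cells. The share of all genes within 2-fold was not counted. By the size rule more genes of any kind changed in p53+/+ cells, 9.04% higher and 6.86% lower, than in p53-/- cells, 2.65% and 2.08%. The keratin counts are therefore not read as particular to keratins.

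Between the 0 h arrays KRT6B was the 1 keratin at least 2-fold higher on the array labelled p53+/+, at 2.67-fold, and 0 were lower. Of the 52 members 24 could be called, and 3.8% of 13878 genes were higher and 5.07% lower. All 5 stress keratins were higher on that array, by 0.75 for KRT6A, 0.86 for KRT6C, 0.85 for KRT16, 0.74 for KRT17 and 1.42 for KRT6B, beside a median of 0.02 over all genes. The basal keratins differed by 0.29 for KRT5, 0.51 for KRT14 and −0.34 for KRT15. The simple keratins KRT7, KRT8 and KRT18 lay between −0.05 and 0.15. Of the 21 keratins well above background on all arrays, 15 were higher and 6 lower on the array labelled p53+/+ 0 h. All but KRT6B, 20 of the 21, were within 2-fold. The stress keratins were thus further apart than the simple keratins, but a higher level on that array was not confined to them. There was 1 array on each side and no test.

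The attachment and processing genes of keratin filaments were followed as a list of 28 genes, all with a probe, of which 27 could be called between treated genotypes. By the size rule 7 were higher in p53+/+ cells and 0 lower, where 6.34% and 5.79% of all genes were. By limma 10 were higher and 0 lower, where 12.7% and 10.3% of all genes were. PADI3, and in limma SYNM, were well above background on treated p53+/+ arrays alone (3 and 2 of them). Of the 22 listed genes well above background on all 8 arrays, 6 were higher by the size rule and 8 by limma. The shares of all genes under that filter are not given here. The median difference over the 27 was 1.08, 0.59 and 0.50 at 12, 24 and 48 h, beside 0.08, −0.03 and 0.10 over all genes. DSG3, a desmosomal cadherin of basal cells, was 26.9-, 27.3- and 22.9-fold higher, and its kin DSC3 and DSC2 were 11.6-, 13.0- and 10.6-fold and 2.82-, 2.42- and 5.87-fold higher. COL17A1, the collagen of hemidesmosomes, which anchor KRT5 and KRT14 filaments to the basement membrane, was 12.2-, 17.9- and 13.1-fold higher. EPPK1, a plakin that binds keratins, was 8.93-, 18.0- and 4.94-fold higher. PADI3, which converts arginines of filament proteins to citrulline, was not well above background on the treated p53-/- arrays and was at least 4.34-, 11.3- and 4.56-fold higher. From the array labelled p53+/+ 0 h, 11 of the 24 that could be called were higher in treated p53+/+ cells and 0 lower, where 9.04% and 6.86% of all genes were. From the p53-/- 0 h array, which differs in genotype too, 7 were higher and 1, TCHP, lower, where 8.91% and 7.28% of all genes were. In p53-/- cells 1 was higher than at 0 h, PADI1, and 1 lower, ITGB4, where 2.65% and 2.08% of all genes were.

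**Figure D4:**
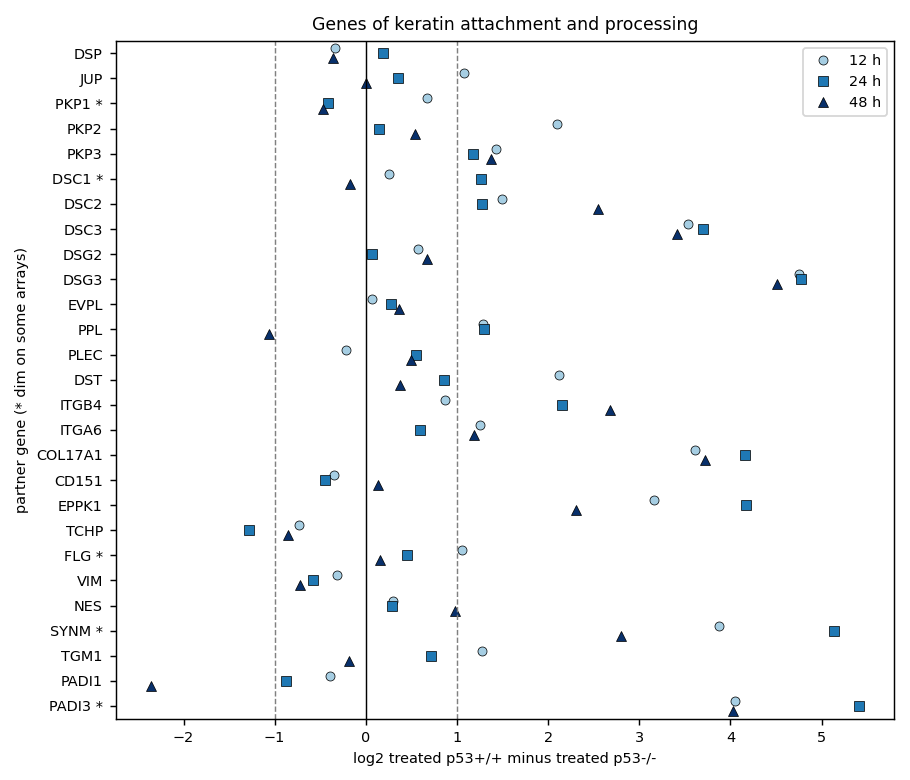
Log2 treated p53+/+ minus treated p53-/- (horizontal axis) at 12, 24 and 48 h for the 27 of 28 listed partner genes well above background on at least 1 array, 1 point per pair of arrays. Asterisks mark genes that were dim on some arrays, for which a point rests on a signal not above background on those arrays, and dashed lines mark 2-fold. DSG3, DSC3, COL17A1 and EPPK1 lie beyond 2 at every time, and no gene lies past the lower line at all 3 times.

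The summed epithelial and mesenchymal markers also differed between the treated genotypes, while the blood cell list overlapped. The summed signal of the epithelial list (CDH1, EPCAM, CLDN7, ESRP1 and GRHL2) was, on the log2 scale, 2.87 to 3.37 on the treated p53+/+ arrays, 0.20 to 1.59 on the treated p53-/- arrays, 0.27 on the array labelled p53+/+ 0 h and 0.38 on the p53-/- 0 h array. CDH1, the cadherin of epithelial junctions, read 1.42 to 2.10, −3.30 to −0.94, −3.13 and −3.55 in the same order. The summed signal of the mesenchymal list (VIM, FN1, CDH2, ZEB1, COL1A1, COL3A1 and PDGFRB) was 6.66 to 7.08, 7.40 to 7.48, 7.50 and 7.57, most of it from VIM, at 6.63 to 7.06, 7.35 to 7.41, 7.39 and 7.47. FN1, a matrix protein, read −1.16, −2.09 and −2.43 in treated p53+/+ cells against 1.42, 1.29 and 1.03 in treated p53-/- cells. The cadherin CDH2 read 0.33, −0.10 and 0.40 against 2.84, 2.34 and 1.48, and ZEB1, a repressor of epithelial genes, −1.48, −1.87 and −1.32 against 0.63, 0.07 and −0.17. These 3 genes were more than 2-fold lower in p53+/+ cells at every time. That of the blood cell list (PTPRC, CD68 and CD3E) was −0.29 to 0.57, 0.44 to 0.75, 0.78 and 0.92. GRHL2, COL3A1 and the luminal marker PGR were not well above background on any array, and TP63, a basal marker, was so on 3. The basal and luminal lists hold keratins themselves and were 8.41 to 8.92 against 7.0 to 7.49 and 6.06 to 6.57 against 5.30 to 6.01 on the treated arrays. The part of these cell states in the keratin differences was not tested.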

How the data were processed

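The authors deposited the Feature Extraction (10.7.3.1) output of 8 single-colour Agilent arrays, whose header names hg19. The value used was the processed signal, a background-corrected intensity on a linear scale, and the deposited series table held the same intensity values (503808 of 503808 equal within a relative 0.001 or absolute 0.01). Normalization between arrays is not given in the sources used here. Flagged and control spots were left out, and log2 intensity was scaled to the 75th percentile of each array and averaged over spots. Of 42391 probes, 27227 (64.2%) were named by accession through RefSeq (GRCh38.p14), and each gene took its brightest probe. With 1 array per condition, a call needed a 2-fold difference in 1 direction at all 3 times, with the brighter side well above background. limma (3.58.1, R 4.3.3; 4 residual degrees of freedom) fitted genotype over the 6 treated arrays. On simulated data with 15669 genes this fit recovered 14% of log2 changes of 1, 60% of 2 and 92% of 4, with 9 false calls. The simulated noise was independent between genes and arrays. It held no movement shared by an array or a time, so the false calls of the real fit may be more. An "at least" fold sets the brighter level against the higher of the dim probe and the lowest signal well above background. The number of arrays limits the precision. Members, lists and tests were chosen with earlier results of these data known. Named were the keratins well above background on all arrays or passing a size rule, CDKN1A and MDM2 for the labels, at most 6 partner genes with the largest smallest difference, and marker lists; KRT19, the pseudogenes, PADI1, ITGB4, TCHP and SYNM were named after their values were seen. An item that this rule covers is not reported here. Alternatives were median, quantile and no scaling, normexp (offset 50), other probe and background filters, a 3-fold rule, the other 0 h array, time as a block, each time left out, and, added later, a signal floor. Python 3.11.15, numpy 2.4.6, pandas 2.3.3 and matplotlib 3.10.9 were used.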

Additional observations from a re-analysis of the deposited data

How the results depend on the processing

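Of 1275 values of single keratins under alternatives, 1231 kept their side of the threshold, 30 lost the call and 13 gained it. Of the 1231, 99 changed sign, all called neither before nor after. Among them were the changes of KRT6A, KRT6B and KRT6C in p53-/- cells, which were −0.04, −0.82 and −0.06 from the array labelled p53+/+ 0 h. The remaining value, the limma estimate of KRT6C, turned to a call of −0.51 without scaling. Between treated genotypes 4 to 6 keratins were higher under every alternative, the lowest count being without scaling and at the 3-fold rule, and 1 was lower, KRT9, without 12 h. From 0 h in p53+/+ cells 3 to 6 were higher, and 3 (KRT71, KRT36 and KRT79) were lower with no filter on dim probes. From 0 h in p53-/- cells the count higher was 4 without scaling, 0 at the 3-fold rule and 2 without 12 h. Between 0 h arrays it was 3 higher without scaling, 3 higher and 1 lower with no filter on dim probes, and 0 at the 3-fold rule. In limma 14 were higher with no filter, 5 lower without scaling, and 0 higher without 24 h. Leaving out 12 or 48 h, or time point as a block, which pairs the genotypes by time, gave 6 higher. With no filter, keratins well above background on no array were tested too. The lowest level well above background was −4.77 to −4.50 on the treated p53+/+ arrays and −5.70 to −5.53 on the treated p53-/- arrays. The 14 are therefore not read as a keratin result. Shares of all genes under these alternatives are not given, apart from the limma totals that follow. All genes called by limma numbered 3604, against 6406 without scaling, 2212 without 12 h, 230 without 24 h and 2448 without 48 h. The cause was not tested. KRT13 lies near background and loses its calls where every array must be well above background.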
